A study of Homo sapiens with 15 samples.

Results

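Zinc handling was examined through 35 genes: the importers of the SLC39A family (14 genes, also called ZIP), the exporters of the SLC30A family (10 genes, also called ZnT), the metallothioneins MT2A and MT1A to MT1X (10 genes) and MTF1. They were taken by gene name, as every gene of these families that both count tables list, out of 38415 names that the tables share. RNA of cultured senescent human cells was sequenced in 15 libraries, 3 in each of 5 groups, to ask what THBD, the gene of thrombomodulin, contributes to senescence. IMR90 is a lung fibroblast line, and all 9 of its libraries are labelled as senescent through HRAS G12V, controls included. Among them, 3 libraries received a non-targeting short hairpin RNA (the control) and 6 a hairpin against THBD, in 2 sets of 3 that the titles number 1 and 2. Huh7 is a carcinoma line derived from hepatocytes, and all 6 of its libraries are labelled as senescent through palbociclib, an inhibitor of the kinases CDK4 and CDK6. Of these, 3 carried the non-targeting hairpin and 3 a hairpin against THBD. A growth protocol shared by all samples also speaks of replicative senescence by long passage, without naming libraries. The labels do not say what the set numbers mean, whether replicates were separate cultures or how many integrations a culture held. The p-values therefore rest on the scatter among libraries, which may be technical.

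Zinc is a structural and catalytic cofactor of a large share of all proteins, and cells hold its free form in the cytosol very low. SLC39A proteins carry zinc into the cytosol, from outside or from organelles, and most SLC30A proteins carry it the other way. Exceptions among the latter are SLC30A9, which exports zinc from mitochondria, and SLC30A10, a manganese exporter. Metallothioneins are small cysteine-rich proteins that bind zinc and copper. MTF1 is the transcription factor that senses zinc and acts through short sites called metal response elements, above all on the metallothionein genes and on SLC30A1. Several metallothioneins also respond to glucocorticoids, and liver takes up zinc through SLC39A14 during inflammation.

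The metal response element has a short core, here searched as TGCACNC and TGCGCNC on both strands, in windows from 250 bases before to 50 bases after each gene's start (RefSeq, GRCh38.p14). The table held windows for 26 of the 35 genes, 35 windows in all, and none for SLC39A4, SLC39A14, SLC30A8, MT1A, MT1E, MT1F, MT1G, MT1L and MT1M. The 10 metallothionein genes lie together on chromosome 16, from base 56608584 at MT2A to base 56684196 at MT1X (GRCh38, as the deposited tables give them). Of 35116 windows in the whole table, 29.6% held at least 1 match, 8.6% at least 2, 2.3% at least 3 and 0.601% at least 4. All 4 metallothionein windows held matches, from 3 in MT1B to 8 in MT2A and in MT1H, and 0.0199% of all windows held 8 or more. Of the exporter windows, 6 of 11 held a match, and of the importer windows 7 of 19, none of them more than 1. The MTF1 window held 0. The 250 bases before the start are shown for 3 metallothioneins that the results turn on or that separate the lines, and for SLC30A1, with the core matches in capitals.
MT2A, chr16:56608334-56608583, plus strand: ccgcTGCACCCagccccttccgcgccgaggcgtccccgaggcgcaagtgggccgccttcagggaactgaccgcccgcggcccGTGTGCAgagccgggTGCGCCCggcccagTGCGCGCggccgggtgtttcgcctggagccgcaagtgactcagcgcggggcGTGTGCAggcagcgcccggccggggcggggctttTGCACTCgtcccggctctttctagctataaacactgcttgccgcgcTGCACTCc
MT1X, chr16:56682220-56682469, plus strand: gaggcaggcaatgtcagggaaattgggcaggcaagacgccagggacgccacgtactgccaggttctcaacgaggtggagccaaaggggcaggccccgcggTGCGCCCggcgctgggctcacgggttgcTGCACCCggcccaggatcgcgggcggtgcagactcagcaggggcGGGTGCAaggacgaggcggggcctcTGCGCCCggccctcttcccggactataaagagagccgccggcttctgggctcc
MT1H, chr16:56669564-56669813, plus strand: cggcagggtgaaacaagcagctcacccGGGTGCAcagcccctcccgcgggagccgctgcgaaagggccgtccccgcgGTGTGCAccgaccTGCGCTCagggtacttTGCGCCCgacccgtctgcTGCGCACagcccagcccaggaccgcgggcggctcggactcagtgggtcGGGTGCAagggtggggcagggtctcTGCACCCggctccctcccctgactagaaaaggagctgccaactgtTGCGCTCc
SLC30A1, chr1:211579162-211579411, minus strand: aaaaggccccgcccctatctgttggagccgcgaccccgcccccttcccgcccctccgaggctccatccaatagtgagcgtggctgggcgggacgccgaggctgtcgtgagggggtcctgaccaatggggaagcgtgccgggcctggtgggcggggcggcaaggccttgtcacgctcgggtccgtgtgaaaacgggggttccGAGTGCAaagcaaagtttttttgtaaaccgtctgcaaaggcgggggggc
In these stretches MT2A held 7 matches, MT1H 8, MT1X 4 and SLC30A1 1; a further match of MT2A and of SLC30A1 lies just after the start. A match describes letters in a window and is not evidence of a bound site.

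The libraries held 18256773 to 21509229 counts in IMR90, 19328182 to 20020683 in the Huh7 control and 22479132 to 25236178 in the Huh7 shTHBD group. Levels are CPM, a gene's counts scaled to a common library total. Log2 fold changes are on the scale of edgeR's TMM library scaling and are given ± SE, an approximate error that can fall below counting error where counts are few. THBD stood at 16.5, 18.8 and 19.99 CPM in the IMR90 control, at 39.4, 36.6 and 37.3 CPM in the libraries labelled set 1 and at 10.5, 11.5 and 11.4 CPM in set 2. In set 1 it was therefore higher than in the control (log2 fold change 1.09, adjusted p = 1.3e-20, edgeR), against the label, and in set 2 lower (-0.81, adjusted p = 1.5e-12). In Huh7 the counts of THBD were 0, 0 and 6 in the control and 0, 0 and 0 in the shTHBD libraries, too few to check the label. The description of set 2 replicate 3 names Huh7 while its other labels name IMR-90. Its hepatocyte markers were as low as in the other set 2 libraries (summed level 8.48 to 9.26 CPM over the 3). Without it, 1 zinc gene lost its call in the comparison of set 2 with the control, and it is named there.

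Markers of the cell types were checked as summed levels. The 10 fibroblast markers, led by COL1A1, summed to 3551 to 3558 CPM in the IMR90 control, 2038 to 2096 CPM in the libraries labelled set 1 and 9260 to 9351 CPM in set 2. In set 2, 5 of the 10 were higher and 5 lower than in the control, and in set 1, 2 were higher and 7 lower. In Huh7 the fibroblast markers summed to 698 to 726 CPM in the control and to 1003 to 1065 CPM in the shTHBD libraries, where 4 of 7 tested were higher and 0 lower. The 10 hepatocyte markers, led by FGB, summed to 6486 to 6696 CPM in the Huh7 control and to 4503 to 4677 CPM in the Huh7 shTHBD libraries, where 9 of 10 were lower. In IMR90 only SERPINA1 of that list exceeded 1 CPM, with 6, 5 and 7 of the 10 at 0 in the control, set 1 and set 2. Its level was 16.3 CPM in the control, 134 CPM in set 1 and 8.80 CPM in set 2. The 6 epithelial markers summed to 80.7 to 98.3 CPM in IMR90, to 4615 to 4847 CPM in the Huh7 control and to 2799 to 2865 CPM in the Huh7 shTHBD libraries. The 7 leukocyte markers summed to 4.09 to 4.61 CPM in the IMR90 control, 11.9 to 13.4 CPM in the libraries labelled set 1 and 1.20 to 1.96 CPM in set 2. The 2 of them tested in IMR90 were called higher in set 1 and lower in set 2. In Huh7 their sum was 10.7 to 10.8 CPM in the control and 8.67 to 9.34 CPM in the shTHBD libraries, with 0 of 3 called. The 6 endothelial markers summed to 4.94 to 11.95 CPM in IMR90, 14.1 to 15.7 CPM in the Huh7 control and 9.39 to 10.7 CPM in the Huh7 shTHBD libraries. For the counts of markers called, the background over all genes tested was 27.3% higher and 26.5% lower in set 1. It was 33.2% and 34.1% in set 2, and 25.9% and 27.3% in Huh7. The marker sums moved with the groups compared below. Their part in the results was not tested, and in bulk RNA fewer cells of a type and less RNA per cell cannot be told apart.

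The control libraries of the 2 lines differed widely in 4 metallothioneins. MT2A, the main metallothionein of most tissues, held 2265, 2238 and 2258 CPM in the IMR90 control and 9.35, 7.89 and 9.21 CPM in the Huh7 control. Summed over all 10 metallothionein genes, the level was 2503 ± 13.6 CPM (SD, n = 3) in IMR90 and 28.8 ± 1.92 CPM in Huh7. MT2A made up 90.0% of that sum in IMR90 and 30.6% in Huh7. MT1E held 185, 180 and 172 CPM in IMR90 against 8.54, 8.29 and 9.05 CPM in Huh7. MT1L, annotated as a gene or pseudogene, held 43.6 to 44.9 CPM against 0.350 to 0.711 CPM, and MT1X 21.4 to 24.4 CPM against 0.813 to 1.95 CPM. All 4 were lower in Huh7, with log2 differences of -8.32 ± 0.065 for MT2A, -6.79 ± 0.150 for MT1L, -4.70 ± 0.076 for MT1E and -4.40 ± 0.168 for MT1X (adjusted p from 7.9e-48 to 1.2e-24, edgeR).

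The other metallothioneins did not follow that order. MT1F held 1.47, 2.41 and 2.37 CPM in the IMR90 control and 5.23, 4.89 and 7.09 CPM in the Huh7 control and was higher in Huh7 (1.13 ± 0.215, adjusted p = 1.0e-05, edgeR). MT1G held 1.15, 1.45 and 1.67 CPM in IMR90 and 1.68, 1.498 and 1.66 CPM in Huh7, and the lines overlapped. MT1H had no count in any of the 9 IMR90 libraries and 21, 13 and 17 counts in the Huh7 control, at least 5.39-fold higher against a floor of 3 counts per library. MT1M held 0, 1 and 1 counts in the IMR90 control and 3, 5 and 11 in the Huh7 control (called higher in Huh7, adjusted p = 0.014, but 0.064 without IMR90 control replicate 1 and 0.10 without Huh7 control replicate 3). MT1A held 5, 11 and 6 counts against 17, 27 and 16 and missed the threshold (1.11 ± 0.537, adjusted p = 0.055). It was called under 3 other settings and without IMR90 control replicate 2. MT1B held at most 4 counts in any of the 15 libraries. Metallothionein genes resemble each other, and this limits the single genes: of the 50-base words of their transcripts, 18.3% in MT1X, 16.5% in MT1G and 15.8% in MT1H also occur in another gene, against 3.02% in MT2A and 1.22% in MT1F. Of the exon bases of MT1X, 18.6% also belong to another gene of the tables.

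**Figure D1:**
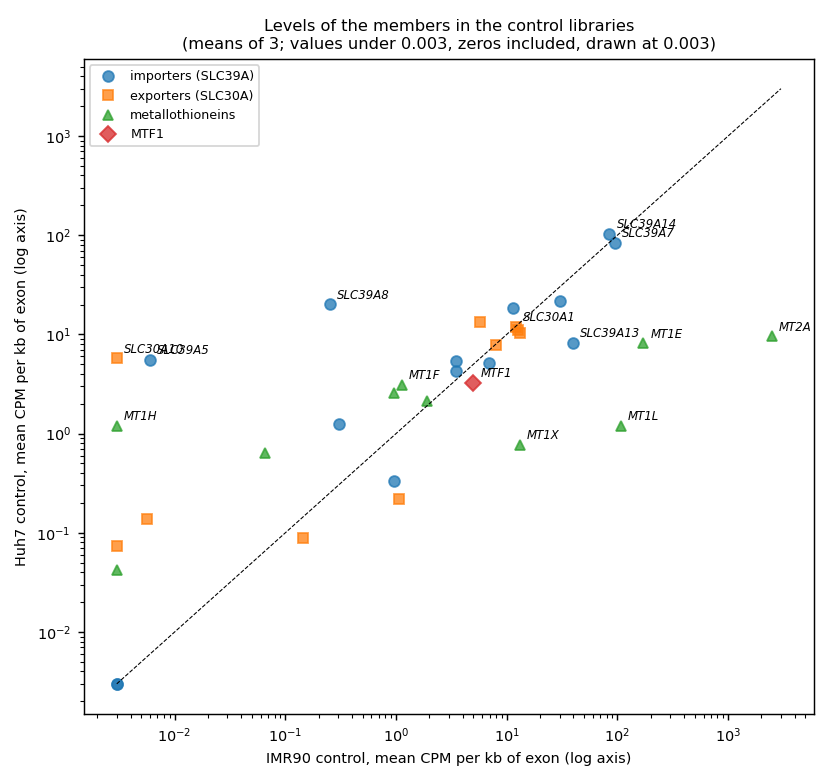
Mean level of each of the 35 genes in the IMR90 control (horizontal) and the Huh7 control (vertical), in CPM per kb of exon on log axes; the dashed line marks equal levels, and values under 0.003 are drawn at 0.003. MT2A, MT1E, MT1L and MT1X lie below the line, and SLC39A8, SLC39A5, SLC30A10 and MT1H lie above it.

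Among the transporters the lines shared their leading importers, while SLC39A8, SLC39A5 and SLC30A10 were far higher in Huh7. Per kb of exon, the importers with the highest level in the IMR90 control were SLC39A7 (94.3 CPM per kb), which releases zinc from the endoplasmic reticulum and Golgi, and SLC39A14 (84.3 CPM per kb), a plasma membrane importer of zinc, iron and manganese. The same 2 led in the Huh7 control, with 104 CPM per kb for SLC39A14 and 83.9 CPM per kb for SLC39A7. SLC39A8, which carries zinc and manganese, held 2.25, 1.82 and 2.37 CPM in IMR90 and 128, 132 and 133 CPM in Huh7 (5.59 ± 0.108 on the log2 scale, adjusted p = 1.1e-34, edgeR). SLC39A5 held 1, 0 and 0 counts in IMR90 and 314, 323 and 316 counts in Huh7. SLC30A10, a manganese exporter of liver and brain, held no count in the 3 IMR90 control libraries and 627, 691 and 641 counts in Huh7, at least 207-fold higher against the floor of 3 counts per library. SLC39A13, a Golgi importer of connective tissue, lay the other way, with 182, 178 and 181 CPM in IMR90 and 36.6, 37.2 and 39.3 CPM in Huh7 (-2.58 ± 0.062, adjusted p = 2.1e-31).

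Of the other importers, SLC39A1 (1.69), SLC39A9 (0.34) and SLC39A3 (0.29) were higher in Huh7, and SLC39A4 (-1.82), SLC39A6 (-0.78), SLC39A10 (-0.75) and SLC39A7 (-0.50) were lower. Of the exon bases of SLC39A1, 69.1% also belong to other genes in each line's table. Its level, its difference and its place in the order per kb are therefore uncertain. SLC39A14 (-0.02) and SLC39A11 (-0.03) were not called, and upper-quartile scaling called SLC39A14 higher (0.08). The call of SLC39A3 was lost without Huh7 control replicate 3 (0.22, adjusted p = 0.055, edgeR).

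All 9 exporters tested were called between the control libraries of the lines, 3 of them higher in Huh7 and 6 lower. Most genes of any kind were called here. Over all genes tested, 44.2% were higher and 40.7% lower, and 2508 of 16682 were not called. SLC30A1, the plasma membrane exporter, held 70.2, 71.4 and 70.7 CPM in the IMR90 control and 72.6, 72.1 and 66.2 CPM in the Huh7 control. The libraries overlapped, although the TMM-scaled difference was called (-0.33 ± 0.055, adjusted p = 8.6e-07, edgeR). SLC30A7 overlapped likewise (-0.34). SLC30A4 was lower in Huh7 (-2.62 ± 0.183), as were SLC30A9 (-0.51) and SLC30A3 (-1.02). SLC30A8, with 0 to 2 counts in the IMR90 control and 15 to 20 in the Huh7 control, was higher. SLC30A6 was higher in Huh7 (0.89 ± 0.069) and its partner SLC30A5 lower (-0.67 ± 0.059). MTF1 held 39.9, 39.7 and 40.0 CPM in IMR90 and 27.3, 25.9 and 24.7 CPM in Huh7 (-0.94 ± 0.081, adjusted p = 1.8e-13). In all, 31 of the 35 genes passed the filter on low counts here; 11 were higher in Huh7 (background: 44.2% of all genes tested), 16 lower (background: 40.7%) and 4 were not called. Members were thus 35.5% and 51.6%. SLC30A10, SLC39A5, SLC30A8, MT1H and MT1M passed the filter only through the Huh7 libraries, and MT1L only through the IMR90 libraries. The filter set the direction of these genes in advance, so they add little to the counts. The median over the 31 was -0.33, with SLC30A10 and MT1H at their bound too, against 0.08 over all genes tested. Line, way of inducing senescence and count table cannot be told apart in this comparison, and upper-quartile scaling moved the median of all genes to 0.18. The tables' exon models differ for SLC39A8 (8482 bases in IMR90, 6480 in Huh7) and SLC30A10 (8831 and 5770 bases).

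In IMR90 set 2, where THBD was lower than in the control, most of the zinc genes that could be tested were lower too. Of the 25 that passed the filter, 19 were lower than in the control (76%; background: 34.1% of all genes tested), 2 were higher (background: 33.2%) and 4 were not called. The median log2 fold change was -0.67, against 0.01 over all genes tested. By family, 9 of 11 importers, 3 of 7 exporters, all 6 metallothioneins tested and MTF1 were lower. MT1F and MT1G held at most 7 counts in any set 2 library. They passed the filter only through the control and set 1 libraries, where they are higher, so their falls add little to this count. The other 10 genes were not tested in IMR90 (SLC39A2, SLC39A5, SLC39A12, SLC30A2, SLC30A8, SLC30A10, MT1A, MT1B, MT1H and MT1M) and had at most 11 counts in any of its libraries.

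The largest fall among well expressed members was in SLC39A14. It held 579.9, 584 and 583 CPM in the control and 108.5, 106 and 113 CPM in set 2, so that the groups lay far apart. This is 5.65-fold lower (-2.50 ± 0.028, adjusted p = 2.0e-69, edgeR). SLC39A7 went from 271, 266 and 268 CPM to 166, 164 and 159 CPM (-0.81 ± 0.030), and SLC39A11, an importer of the Golgi and plasma membrane, from 18.02, 19.8 and 20.3 CPM to 8.64, 9.72 and 9.69 CPM (-1.13 ± 0.100). SLC39A8 was low throughout, at 43, 34 and 51 counts in the control and 20, 22 and 16 in set 2 (-1.15 ± 0.296, adjusted p = 5.0e-04). SLC39A3 (-0.72), SLC39A4 (-0.79), SLC39A9 (-0.26) and SLC39A13 (-0.26) were lower as well.

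The plasma membrane partners SLC39A6 and SLC39A10, which form a complex with each other, moved little. SLC39A6 held 110.1, 111 and 111 CPM in the control and 108.5, 103 and 108 CPM in set 2 (-0.14 ± 0.038, adjusted p = 1.2e-03, edgeR), and under upper-quartile scaling it was not called (-0.07, adjusted p = 0.10). SLC39A10 held 49.9, 47.6 and 46.4 CPM in the control and 54.9, 56.0 and 59.7 CPM in set 2 (0.16 ± 0.054, adjusted p = 6.3e-03). It was the only importer called higher, and the call was lost without set 2 replicate 3 (0.12, adjusted p = 0.061) or without control replicate 3 (0.13, adjusted p = 0.063). SLC39A1 held 19, 19 and 24 counts against 13, 23 and 19 and was not called. Of its exon bases, 69.1% also belong to other genes of the table, where reads were not assigned, so its level is uncertain.

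Among the exporters, SLC30A9, which exports zinc from mitochondria, fell most. It held 89.2, 95.1 and 87.7 CPM in the control and 35.1, 33.2 and 33.9 CPM in set 2, 2.81-fold lower (-1.49 ± 0.050, adjusted p = 2.5e-39, edgeR). SLC30A7, a Golgi exporter, went from 68.7, 70.4 and 66.9 CPM to 46.8, 48.4 and 50.6 CPM (-0.58 ± 0.048). SLC30A1 went from 70.2, 71.4 and 70.7 CPM to 61.8, 64.3 and 59.1 CPM (-0.28 ± 0.045, adjusted p = 1.0e-07). SLC30A4, an exporter of endosomes and lysosomes, rose instead, from 8.17, 9.05 and 8.601 CPM to 12.6, 15.5 and 15.1 CPM (0.66 ± 0.112, adjusted p = 4.0e-07). SLC30A5 (0.07), SLC30A6 (0.06) and SLC30A3 (0.04) were not called; upper-quartile scaling called SLC30A5 higher (0.13, adjusted p = 6.0e-03).

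The metallothioneins of set 2 fell by unequal amounts. MT2A held 1461, 1447 and 1510 CPM in set 2, 1.62-fold lower than in the control (-0.70 ± 0.025, adjusted p = 8.3e-37, edgeR), and MT1E held 55.4, 58.6 and 57.4 CPM, 3.32-fold lower (-1.73 ± 0.041). MT1X held 22.3, 24.4 and 21.4 CPM in the control and 11.5, 10.3 and 11.2 CPM in set 2 (-1.13 ± 0.088), and MT1L fell by 0.67 on the log2 scale. The largest folds of the family were in genes with few reads. MT1F had 28, 45 and 51 counts in the control and 6, 7 and 7 in set 2 (-2.62 ± 0.366, adjusted p = 2.6e-09), and MT1G 22, 27 and 36 counts against 4, 4 and 7 (-2.48 ± 0.452, adjusted p = 1.7e-06). In none of the 6 metallothioneins tested did a set 2 library reach a control library. The groups were kept apart in this way in 22 of the 25 zinc genes tested. The share over all genes was not counted, so this count cannot be read as particular to the zinc genes. Summed over the family, the level was 1571 ± 34.2 CPM in set 2, and without MT2A it was 98.4 CPM against 249.95 CPM in the control. MTF1 held 29.02, 30.7 and 29.6 CPM in set 2, below the 39.7 to 40.0 CPM of the control (-0.50 ± 0.061, adjusted p = 4.0e-11).

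**Figure D2:**
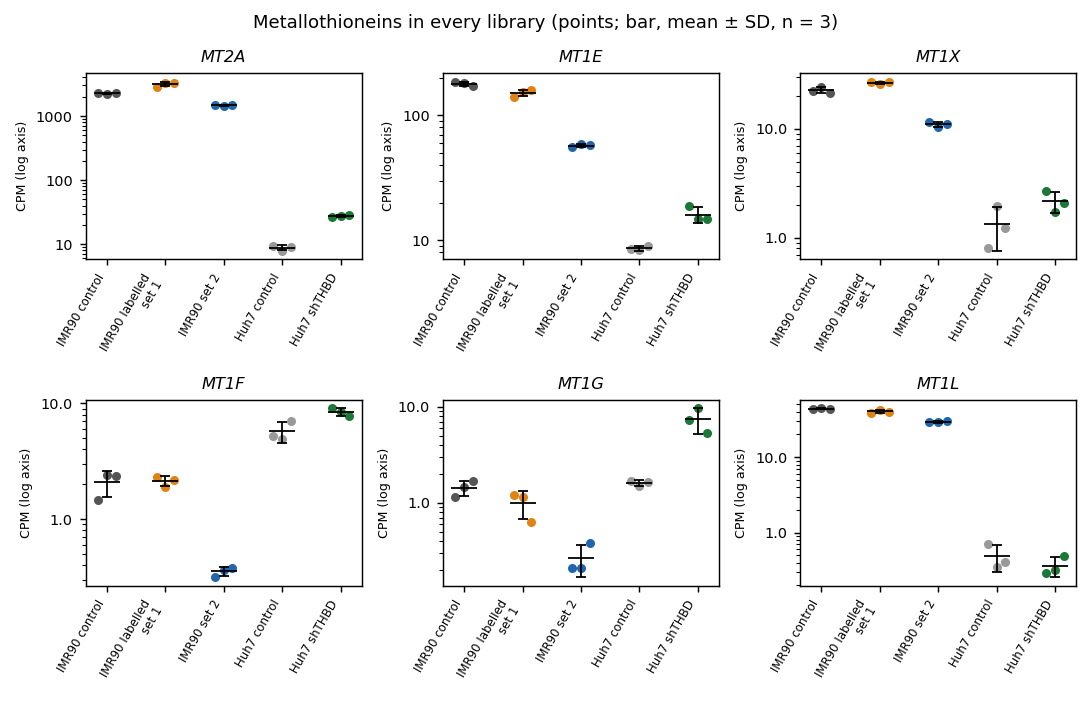
CPM (log axis) of 6 metallothioneins in each library (points) with the mean ± SD of 3 libraries, for the 5 groups. In each panel the set 2 libraries lie below the IMR90 control, and MT2A, MT1E, MT1F and MT1G are higher in the Huh7 shTHBD libraries than in the Huh7 control, while MT1X and MT1L overlap there.

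The libraries labelled set 1, in which THBD was above the control, gave a mixed picture. They share their control libraries with the comparison above. Of the 25 genes tested, 8 were higher (background: 27.3%), 5 lower (background: 26.5%) and 12 not called, with a median of 0.09 against 0.00 over all genes, so both counts were near the background. MT2A held 2852, 3313 and 3330 CPM and was 1.46-fold higher than in the control (0.55 ± 0.025, adjusted p = 2.2e-30, edgeR). MT1X held 26.7, 25.7 and 26.7 CPM (0.27 ± 0.078), while MT1E held 141, 154 and 159 CPM and was lower (-0.19 ± 0.036, adjusted p = 9.1e-06). MT1F (2.30, 1.90 and 2.20 CPM), MT1G (1.21, 1.15 and 0.636 CPM) and MT1L (38.6 to 42.2 CPM) were not called. The family sum was 3386 ± 281 CPM, and replicate 1 lay lowest of the 3 at 3062 CPM. MTF1 held 45.9, 48.0 and 47.1 CPM, all above the control (0.29 ± 0.058, adjusted p = 1.3e-05).

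Among the transporters of the libraries labelled set 1, SLC30A1 rose to 105.6, 103 and 104 CPM, 1.53-fold above the control (0.61 ± 0.042, adjusted p = 4.5e-21, edgeR), and SLC30A7 to 82.2, 85.7 and 84.4 CPM (0.35 ± 0.045). SLC30A4 fell to 4.71, 4.95 and 4.89 CPM (-0.77 ± 0.131). SLC39A11 held 10.3, 9.24 and 10.8 CPM (-0.88 ± 0.099) and SLC39A7 held 172, 171 and 166 CPM (-0.61 ± 0.030, adjusted p = 9.9e-29), both below every control library. SLC39A14 held 555.5, 550.4 and 539.7 CPM and was not called (-0.03 ± 0.024, adjusted p = 0.28), although upper-quartile scaling called it lower (-0.06). SLC39A8 (2.19, 1.85 and 1.32 CPM), SLC39A6 (107, 109 and 100.8 CPM) and SLC30A9 (81.1, 81.6 and 85.5 CPM) were not called, SLC30A9 being called lower under upper-quartile scaling (-0.11, adjusted p = 0.035). SLC39A10 held 53.8, 59.6 and 52.0 CPM (0.26 ± 0.054, adjusted p = 3.9e-05). Small calls were unsteady here. SLC30A5 (-0.12) lost its call without control replicate 2, set 1 replicate 1 or set 1 replicate 3 and in DESeq2. SLC39A9 (0.12) lost it without control replicate 1 or 2 or set 1 replicate 2 and under upper-quartile scaling, which also ended that of SLC39A13 (0.10).

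Compared with each other, the libraries labelled set 1 were higher than set 2 in 19 of the 25 genes (76%; background: 33.9%), lower in 2 (background: 35.6%) and not called in 4. The median was 0.80, against -0.03 over all genes tested. All 6 metallothioneins tested were higher in set 1, with log2 differences of 1.24 ± 0.026 for MT2A, 1.54 ± 0.041 for MT1E, 1.40 ± 0.087 for MT1X, 2.70 ± 0.365 for MT1F, 2.01 ± 0.475 for MT1G and 0.59 ± 0.062 for MT1L. MT1F and MT1G passed the filter only through the control and set 1 libraries, so they add little to this count. Of the transporters, SLC39A14 differed most, at 539.7 to 555.5 CPM in set 1 and 106 to 113 CPM in set 2 (2.47 ± 0.028, adjusted p = 4.5e-69, edgeR). SLC30A9 (1.42 ± 0.050), SLC30A7 (0.93 ± 0.047), SLC30A1 (0.89 ± 0.043) and MTF1 (0.80 ± 0.060) were also higher in set 1. SLC30A4 was lower in set 1 (-1.43 ± 0.123), as was SLC30A5 (-0.19 ± 0.045). SLC39A7 and SLC39A11, below the control in both sets, differed little between them (0.20 ± 0.031 and 0.25 ± 0.109). The call of SLC39A11 was lost without set 1 replicate 1 or 3 or set 2 replicate 1, and upper-quartile scaling, which moved the median of all genes to -0.13, ended the calls of SLC39A11 and SLC39A6. SLC39A10 was not called (0.09) but was called higher without set 1 replicate 3 (0.14) or set 2 replicate 3 (0.13).

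**Figure D3:**
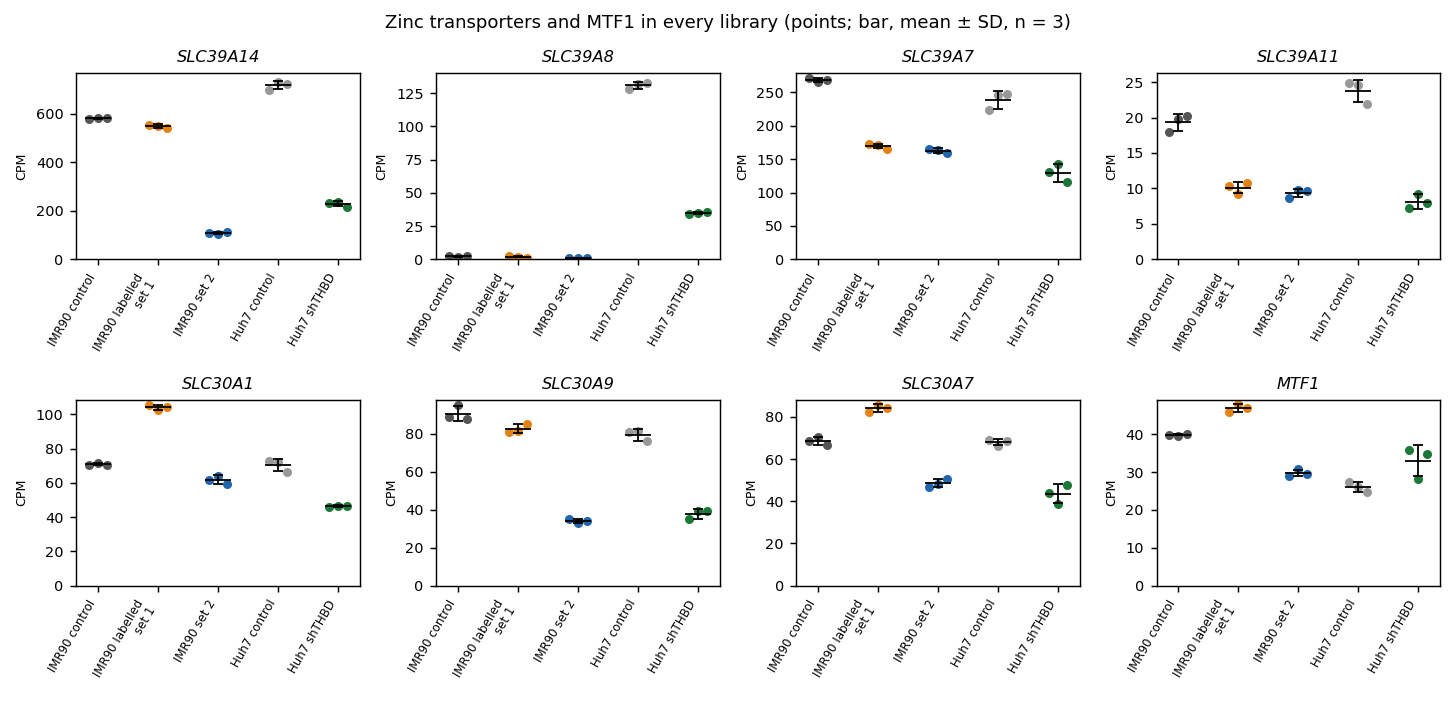
CPM of 7 zinc transporters and of MTF1 in each library (points) with the mean ± SD of 3 libraries, for the 5 groups, each axis starting at 0. SLC39A14, SLC30A9 and SLC30A7 lie lower in set 2 and in the Huh7 shTHBD libraries than in the control of the line, and SLC30A1 lies at 103 to 105.6 CPM in the libraries labelled set 1.

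In Huh7, 7 importers were lower in the shTHBD libraries than in the control and 5 metallothioneins were higher. Of 30 genes tested, 9 were higher than in the control (background: 25.9%), 10 lower (background: 27.3%) and 11 not called, with a median of -0.02 against 0.00 over all genes. Over the members as a whole the counts were thus near the background. By family, 7 of 12 importers were lower and 1 higher (median -0.80), 3 of 9 exporters were lower and 2 higher, and 5 of 8 metallothioneins were higher and 0 lower (median 1.09). Of the importers called lower, SLC39A4 passed the filter on low counts only through the control libraries. MT1L, with 7 to 14 counts per library, was not tested. SLC39A2, SLC39A12, SLC30A2 and MT1B were not tested either and held at most 10 counts.

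The largest falls in Huh7 were among the importers. SLC39A14 held 699.8, 733 and 724 CPM in the control and 234, 236 and 216 CPM in the shTHBD libraries, 3.21-fold lower (-1.68 ± 0.053, adjusted p = 1.1e-22, edgeR). SLC39A8 went from 128, 132 and 133 CPM to 33.8, 34.5 and 35.7 CPM (-1.94 ± 0.070, adjusted p = 2.2e-21). SLC39A5, an importer of liver and pancreas, went from 16.0, 16.1 and 16.3 CPM to 2.16, 0.753 and 0.801 CPM, 13.3-fold lower (-3.73 ± 0.228), with replicate 1 the highest of the 3. These 3 were each far outside the spread of the control. SLC39A11 held 24.8, 24.5 and 21.9 CPM against 7.18, 9.27 and 7.87 CPM (-1.58 ± 0.126), and SLC39A7 held 223, 246 and 247 CPM against 131, 142 and 115 CPM (-0.91 ± 0.063). SLC39A4, the importer of intestinal zinc uptake, had 32, 37 and 30 counts against 9, 4 and 4 (-2.82 ± 0.521, adjusted p = 2.4e-05), and SLC39A3 was lower too (-0.68 ± 0.110). SLC39A6 was the importer called higher, at 86.3, 78.5 and 77.6 CPM against 103, 100.7 and 103 CPM (0.31 ± 0.068, adjusted p = 2.5e-04). SLC39A10 held 36.3, 35.6 and 35.6 CPM against 30.9, 31.6 and 34.7 CPM and was not called (-0.17 ± 0.089), but was called lower without shTHBD replicate 3 (-0.25, adjusted p = 0.018). SLC39A1 (0.02), SLC39A9 (-0.03) and SLC39A13 (-0.01) overlapped with the control.

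The exporters of Huh7 split. SLC30A1 held 72.6, 72.1 and 66.2 CPM in the control and 46.1, 46.7 and 46.8 CPM in the shTHBD libraries (-0.63 ± 0.075, adjusted p = 1.4e-08, edgeR). SLC30A9 was lower too, from 80.8, 81.6 and 76.1 CPM to 34.9, 39.2 and 39.6 CPM (-1.10 ± 0.078), as was SLC30A7, from 69.2, 66.3 and 68.4 CPM to 44.0, 38.9 and 47.7 CPM (-0.67 ± 0.082). SLC30A4 rose from 2.08, 1.85 and 1.29 CPM to 4.65, 6.06 and 5.43 CPM, 3.02-fold (1.59 ± 0.250, adjusted p = 2.0e-06). SLC30A5 was called higher (0.24 ± 0.076, adjusted p = 8.8e-03), but not without control replicate 1 (0.19, adjusted p = 0.079) or 2 (0.19, adjusted p = 0.070). SLC30A10, at 627 to 691 counts in the control and 676 to 745 in the deeper shTHBD libraries, missed the threshold (-0.20 ± 0.089, adjusted p = 0.059) and was called lower without shTHBD replicate 3. SLC30A8, known from insulin granules, held 16, 20 and 15 counts against 29, 51 and 39 (0.91 ± 0.411, adjusted p = 0.064), and was called higher without shTHBD replicate 1, under upper-quartile scaling and under a filter of 1 CPM. SLC30A6 (-0.02) and SLC30A3 (-0.06) were not called.

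Of the 8 metallothioneins tested in Huh7, MT2A, MT1E, MT1F, MT1G and MT1H were called higher in the shTHBD libraries. MT2A went from 9.35, 7.89 and 9.21 CPM to 27.1, 27.7 and 28.4 CPM, 3.08-fold higher (1.63 ± 0.117, adjusted p = 1.3e-13, edgeR). MT1E went from 8.54, 8.29 and 9.05 CPM to 18.7, 14.8 and 14.7 CPM (0.87 ± 0.136, adjusted p = 1.9e-06). MT1G went from 1.68, 1.498 and 1.66 CPM to 7.30, 9.71 and 5.34 CPM, 4.52-fold higher (2.18 ± 0.239, adjusted p = 2.1e-09). MT1H, which had no count in IMR90, rose from 21, 13 and 17 counts to 50, 115 and 40 (1.66 ± 0.384, adjusted p = 4.4e-04). No shTHBD library of these 4 genes overlapped with a control library. The groups did not overlap in 23 of the 30 zinc genes tested. The share over all genes was not counted, so this count too cannot be read as particular to the zinc genes. MT1F went from 5.23, 4.89 and 7.09 CPM to 9.13, 8.40 and 7.83 CPM (0.53 ± 0.173, adjusted p = 0.010), and its call was lost without control replicate 1 (0.48, adjusted p = 0.050) or 2 (0.42, adjusted p = 0.079). MT1X held 0.813, 1.95 and 1.24 CPM against 2.697, 1.74 and 2.09 CPM. It was not called (0.67 ± 0.363, adjusted p = 0.12), and was called without control replicate 2 (1.04, adjusted p = 0.046). MT1M (1.32 ± 0.598, adjusted p = 0.063) was called higher without control replicate 3 (1.97) or shTHBD replicate 2 (1.61), and MT1A was not called (-0.72 ± 0.486).

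Summed over the family, the Huh7 level was 66.6 ± 3.88 CPM in the shTHBD libraries against 28.8 ± 1.92 CPM in the control. MT2A made up 41.8% of that sum, and the sum without it was 38.8 CPM against 20.02 CPM. This sum stayed far under the 1571 CPM of IMR90 set 2. MTF1 held 27.3, 25.9 and 24.7 CPM in the control and 35.9, 28.3 and 34.8 CPM in the shTHBD libraries, with replicate 2 the lowest (0.32 ± 0.101, adjusted p = 8.7e-03, edgeR). Its call was lost without control replicate 3 (0.27, adjusted p = 0.053) or shTHBD replicate 1 (0.26, adjusted p = 0.065).

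**Figure D4:**
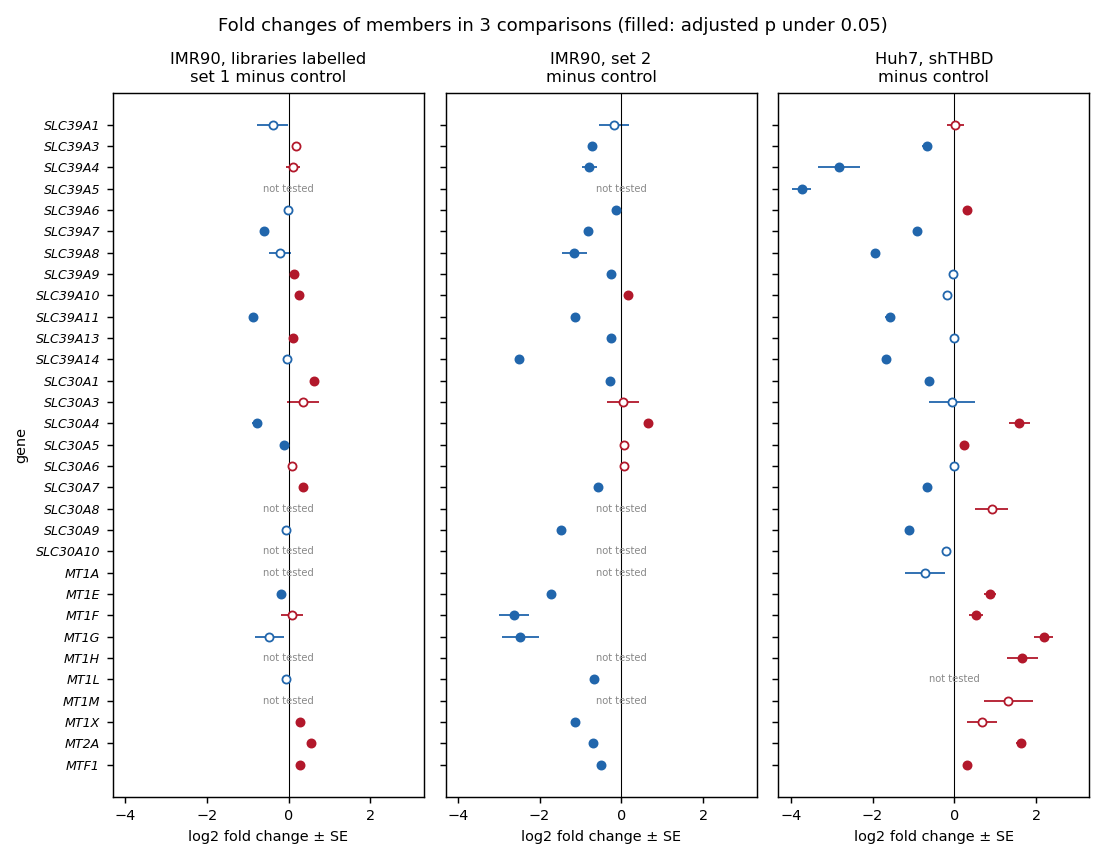
Log2 fold change ± SE (horizontal) of each gene tested in at least 1 of 3 comparisons: the libraries labelled set 1, set 2 and Huh7 shTHBD, each against the control of its line; filled points have an adjusted p under 0.05. The metallothioneins lie left of 0 in set 2 and, except MT1A, right of 0 in Huh7, while SLC39A14, SLC39A11, SLC39A8, SLC39A7 and SLC30A9 lie left of 0 in both.

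The comparison of IMR90 set 2 with its control and the Huh7 comparison share no library, so their calls can be set side by side. Lower in both were 9 genes: SLC39A3, SLC39A4, SLC39A7, SLC39A8, SLC39A11, SLC39A14, SLC30A1, SLC30A7 and SLC30A9. Among the 24 zinc genes tested in both lines, these are 9 of the 18 lower in set 2 (50%) and 9 of the 9 lower in Huh7. In Huh7, SLC39A4 passed the filter only through the control libraries, where it is higher, so it adds little to these counts. Among all 12645 genes tested in both lines, 2344 were lower in both, which is 51.3% of those lower in set 2 and 60% of those lower in Huh7. SLC30A4 was higher in both. MT2A, MT1E, MT1F, MT1G, MTF1 and SLC39A6 were lower in set 2 and higher in Huh7. The share of all genes with such opposite calls was not counted. As given above, MT1F and MTF1 lost their Huh7 call without some single libraries, and SLC39A6 its set 2 call under upper-quartile scaling.

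The difference between the 2 effects was tested itself, in a joint fit of all 15 libraries. Of 31 genes tested, 12 had a lower effect in IMR90 than in Huh7 (38.7%; background: 22.8%), 5 a higher one (16.1%; background: 21.2%) and 14 were not called, with a median of -0.23 against 0.00 over all genes. The 5 largest differences among called genes with at least 5 CPM in a group were in metallothioneins: MT1G (-4.69 ± 0.484), MT1F (-3.18 ± 0.386), MT1E (-2.63 ± 0.108), MT2A (-2.35 ± 0.086) and MT1X (-1.82 ± 0.260), with adjusted p from 1.5e-23 to 2.3e-07 (edgeR). The ranking depends on that cut. It left out SLC39A4, whose difference of 2.0 was larger than that of MT1X and whose highest mean was 4.74 CPM (IMR90 control). MT1G met the cut only in the Huh7 shTHBD libraries (mean 7.45 CPM). MT1F and MT1G held at most 7 counts in any set 2 library, and SLC39A4 at most 9 in any Huh7 shTHBD library. In the joint fit these genes passed the filter only through other libraries. They add little to the counts, and the size of their differences is uncertain. SLC39A5 and SLC30A10, which have at most 3 counts in any IMR90 library, were not called (adjusted p = 0.083 and 0.11). SLC39A5 was called higher by the test of DESeq2 (4.60, adjusted p = 0.011) and, in edgeR, without Huh7 shTHBD replicate 1 (5.15, adjusted p = 0.026). MTF1 differed by -0.85 ± 0.114 and SLC39A6 by -0.47 ± 0.072. Genes lower in both lines could differ in size: SLC39A14 (-0.85 ± 0.053) and SLC30A9 (-0.42 ± 0.088) fell more in IMR90, SLC39A4 (2.0 ± 0.442), SLC39A8 (0.76 ± 0.247) and SLC30A1 (0.32 ± 0.079) more in Huh7. For SLC39A7 (0.08 ± 0.067), SLC30A7 (0.06 ± 0.092) and SLC39A3 (-0.07 ± 0.145) no difference was called. SLC30A4 rose less in IMR90 (-0.96 ± 0.240). SLC39A9 (-0.26), SLC39A13 (-0.29), SLC39A10 (0.31) and SLC39A11 (0.42) were called as well. Leaving out 1 library ended the call of SLC39A8 (set 2 replicate 2; 0.67, adjusted p = 0.064), of SLC39A13 (Huh7 shTHBD replicate 1; -0.18, adjusted p = 0.069) and of SLC39A11, which was lost without any of 6 single libraries (IMR90 control replicate 1, set 2 replicates 2 and 3, Huh7 control replicates 1 and 2, or Huh7 shTHBD replicate 1; 0.33 to 0.39) and without a filter on low counts (0.42, adjusted p = 0.051, edgeR). SLC30A5 missed the threshold (-0.20 ± 0.083, adjusted p = 0.051) and was called without IMR90 control replicate 1, Huh7 control replicate 3, or Huh7 shTHBD replicate 1 or 3, and under a filter of 1 CPM.

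**Figure D5:**
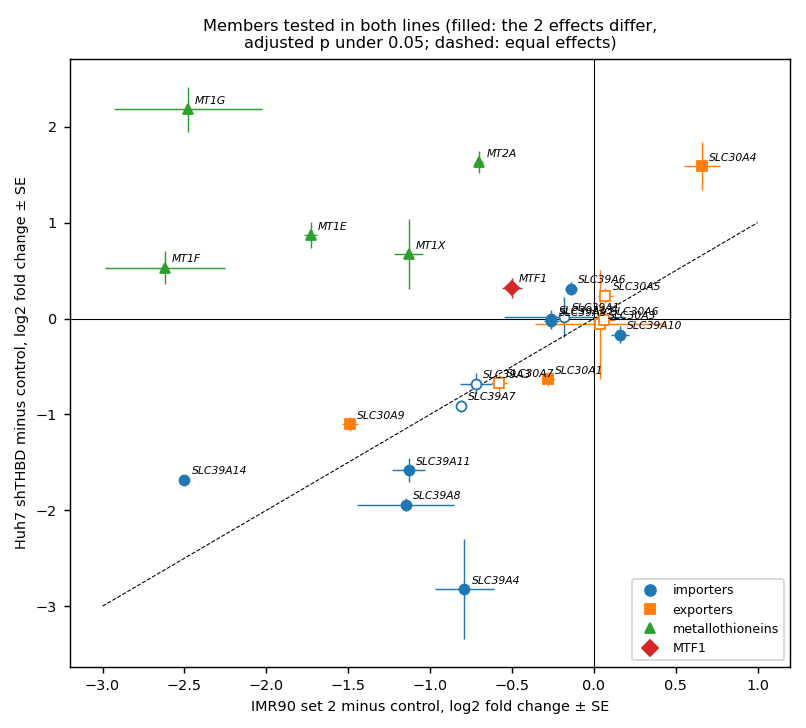
Log2 fold change ± SE of IMR90 set 2 (horizontal) and of Huh7 shTHBD (vertical), each against its control, for the genes tested in both; filled points mark effects that differ between the lines, and the dashed line marks equal effects. The metallothioneins and MTF1 lie in the upper left, and SLC39A14, SLC39A11, SLC39A8, SLC39A4, SLC39A7 and SLC30A9 in the lower left.

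Other genes of metal handling, a list of copper, iron, manganese and magnesium transporters and their chaperones with further zinc and metallothionein loci (33 genes in both tables), were set beside the zinc genes. In set 2, 12 of 25 tested were lower (48%; background: 34.1%) and 5 higher (20%; background: 33.2%), with a median of -0.39. In the libraries labelled set 1, 8 of 25 were lower (32%; background: 26.5%) and 4 higher (16%; background: 27.3%), with a median of -0.01. Between the sets 10 were higher in set 1 (40%; background: 33.9%) and 4 lower (16%; background: 35.6%). In Huh7, 13 of 23 were lower (56.5%; background: 27.3%) and 3 higher (13%; background: 25.9%), with a median of -0.34. The list's most abundant gene was ATP2C1, the Golgi pump of calcium and manganese, in IMR90 and SLC40A1, the iron exporter, in Huh7. A list of 12 genes linked to glucocorticoids, the receptor gene NR3C1 among them, was looked at too. In set 2, 6 of 11 tested were higher (54.5%, background 33.2%) and 4 lower (36.4%, background 34.1%), with a median of 0.20. In the libraries labelled set 1, 5 of 11 were higher (45.5%, background 27.3%) and 4 lower (36.4%, background 26.5%), with a median of 0.10. In Huh7, 5 of 12 were higher (41.7%, background 25.9%) and 5 lower (41.7%, background 27.3%), with a median of 0.01.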

How the data were processed

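The authors deposited gene counts, 1 table per line, and no other values were used. The submitters' processing notes name fastp, STAR, featureCounts and the build GRCh38. Per the file headers, the IMR90 table came from featureCounts 2.0.1 and counts fragments over exons, and the command lists no option for strand, for reads mapped to several places or for reads that overlap several genes. The version and the annotation behind the Huh7 table were not given in the sources used here. Whether the IMR90 table rests on GENCODE 38, as its header says, is in doubt, since 11878 of its gene names start with RP11-, a form that no name of the Huh7 table has. Gene names and some exon models differ between the tables (of the names, 37763 of 59428 in IMR90 and 55858 of 59412 in Huh7 occur in GENCODE 29), so the lines were compared over the 38415 shared names.

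Groups and replicate numbers were taken from sample titles. Each line was fitted with edgeR 4.0.16 (R 4.3.3, limma 3.58.1) by its quasi-likelihood test after filterByExpr and TMM scaling. Benjamini-Hochberg adjustment ran over all genes tested, with calls under 0.05. The fits held 15411 genes (IMR90), 17474 (Huh7) and 16682 (both lines), with a common biological coefficient of variation of 3.13%, 8.20% and 5.48%. An SE was derived from the F statistic, as the size of the log2 change divided by its root. Replicates differed by more than counting error: chi-square per degree of freedom ran from 1.93 to 2.68 (IMR90) and from 3.60 to 12.4 (Huh7). Floors (3 counts per library) cover counting error only. Alternatives were the size factors and test of DESeq2 1.42.0, upper-quartile scaling, other filters, fewer groups, a block on replicate number and leaving out single libraries.

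The genes, the marker lists and the lists of other metal handling genes and of genes linked to glucocorticoids were chosen with earlier results of these data known. By rule, values in every library go to 11 fixed genes (SLC30A1, MTF1, MT2A, MT1X, MT1E, MT1F, MT1G, SLC39A14, SLC39A8, SLC39A6 and SLC39A10) and, per comparison, to the 6 called genes with the largest change among those whose mean reached 5 CPM in either group.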

Additional observations from a re-analysis of the deposited data

Results flagged for a closer look

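The difference between the libraries labelled shTHBD and the control was not the same in IMR90 set 2 and in Huh7 for 17 of the 31 zinc genes tested, by a test of that difference (edgeR, joint fit). Of these, 12 were lower in IMR90, against 22.8% of all genes tested, and 5 higher, against 21.2%. MT1F and MT1G held few counts in set 2, and SLC39A4 few in the Huh7 shTHBD libraries. They passed the filter on low counts only through other libraries, so they add little to these counts. In Huh7 the counts of THBD were too few to check the label. The log2 differences, IMR90 minus Huh7, were negative for the metallothioneins MT1G (-4.69), MT1F (-3.18), MT1E (-2.63), MT2A (-2.35) and MT1X (-1.82), and for MTF1 (-0.85). They were also negative for SLC30A4 (-0.96), SLC39A14 (-0.85), SLC39A6 (-0.47), SLC30A9 (-0.42), SLC39A13 (-0.29) and SLC39A9 (-0.26). They were positive for SLC39A4 (2.0), SLC39A8 (0.76), SLC39A11 (0.42), SLC30A1 (0.32) and SLC39A10 (0.31). Line, inducer of senescence, hairpin and count table cannot be told apart in these differences.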

How the results depend on the processing

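No called zinc gene changed sign in any alternative. Among genes not called, 41 values of 20 results did; one of them, SLC39A14 between the control libraries of the lines, was then called (-0.02 to 0.08 under upper-quartile scaling). Over the single zinc genes and all alternatives, 2186 values kept their side of the threshold, 47 lost a call and 24 gained one in the same direction. The count of zinc genes higher in set 2 ran from 1 to 2 over the fits that left out 1 library, since SLC39A10 was lost without set 2 replicate 3 or control replicate 3. Over the same fits, the count with a higher effect in IMR90 than in Huh7 ran from 3 to 5, with 3 without set 2 replicate 2, where SLC39A8 and SLC39A11 were lost. The other counts of called zinc genes stayed within 1.5 times the values given. Replicates of the same number did not deviate together (correlations of -0.0232 to 0.0109 in IMR90 and -0.128 to -0.0326 in Huh7). For replicates of unlike number the correlations were -0.0394 to 0.0321 in IMR90 and -0.0722 to 0.0984 in Huh7. The labels state no pairing, and with 3 libraries per group this check cannot exclude it. With a replicate block, the counts of called genes were 10316 in set 2 (10372 without the block) and 8784 in Huh7 (9280 without), and 19 zinc genes were again lower in set 2 and 10 in Huh7. The block ended 3 calls between the control libraries of the lines: SLC30A3 (-0.94), MT1M (4.32) and SLC39A3 (0.23). SLC30A3 was called there by a narrow margin (-1.02, adjusted p = 0.046, edgeR) and lost the call under 10 alternatives. Depth limits MT1A, MT1B, MT1H, MT1M, SLC30A2, SLC39A2 and SLC39A12, which hold few or no counts, and the folds of MT1F and MT1G in set 2.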
